A study of Mus musculus with 9 samples.

Results

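The genes described here encode the kinetochore and the spindle checkpoint of mouse cells. The list holds 41 genes, taken by symbol from the known parts of the machinery and sorted into 7 roles: centromeric chromatin, the inner kinetochore, the outer kinetochore, the Ska complex, the checkpoint itself, the fibrous corona and centromeric cohesion. Of these, 40 had a probeset annotated to that gene alone, out of 19937 genes on the array with a probeset of their own. The exception was Hjurp, the chaperone of Cenpa, whose probeset carries more than 1 gene symbol and was left out. The RNA came from HC11 cells, a mammary epithelial line from mid-pregnancy BALB/c mice that carries a mutated p53 gene. HC11-ΔSAP cells stably expressed an RFP-tagged Mkl1 that lacks the SAP domain, HC11-mutB1 cells stably expressed Mkl1-RFP mutated in the site that contacts SRF, and HC11-FL cells stably expressed full length Mkl1-RFP. Each strain was measured on 3 Affymetrix arrays, 9 arrays in all, after 48 h in RPMI medium with 0.03% FCS and without EGF. Every strain therefore carried a construct on top of its endogenous Mkl1, each stands for a single sorted strain, and no strain without a construct was among the arrays. The labels number the arrays of a strain without saying that they came from separate cultures, so the p-values measure the spread between these samples, which may be technical.

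The kinetochore is the protein platform that joins each centromere to the microtubules of the mitotic spindle. Nucleosomes that hold the histone variant Cenpa mark the place, a constitutive inner layer (CCAN) binds them, and an outer layer that assembles for mitosis (the KMN network of the Knl1, Mis12 and Ndc80 complexes) grips the microtubule. Kinetochores without a proper attachment recruit the checkpoint proteins, which hold back the anaphase-promoting complex until all chromosomes are attached. Most of these genes are transcribed periodically in cycling cells, late in the cell cycle, and are silent or low in resting cells.

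Much of this periodic transcription passes through short promoter elements, so the promoter windows of the genes were read first. RefSeq windows of the build GRCm38.p6, from 250 bases before to 50 bases after the annotated start, were matched for 37 of the 40 genes, and for 4 of the 37 there was more than 1 window. The remaining genes were Spc24, Nsl1 and Ska1. The cell cycle genes homology region (CHR, TTTGAA or TTCGAA on either strand), the element through which late cell cycle genes are repressed in resting cells and activated in mitosis, was present in 18 of 37 genes (48.6%), against 21.7% of 27025 genes with a window and 15.6% of the 10427 genes expressed on these arrays (mean log2 level of 4 or more). Within 50 bases of the start, a distance chosen after the matches were seen, a CHR was found in 15 of 37 genes (40.5%), against 6.12% of all genes and 4.24% of expressed genes. The CCAAT box (CCAAT, either strand) was in 25 genes (67.6%), against 41.1% of all genes and 42.2% of expressed genes, and an E2F motif (TTCCCGC, or in its place TTGGCGC, or in its place TTCGCGC, either strand) in 13 genes (35.1%), against 9.20% of all genes and 16.2% of expressed genes. No window held a CArG box, the element that SRF binds, which is in 1.81% of all genes. In the windows of these genes 1 of 20 CHR matches overlapped another motif. A match describes the letters of the window and is neither a bound site nor a cause.

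A few windows are printed below in lower case, each 5′ to 3′ on the strand of its gene, with CHR, CCAAT and E2F motifs in capitals, where ATTGG and GCGGGAA are CCAAT and TTCCCGC read on the other strand. Cenpf (chr1:189688037-189688336, reverse strand) and Knl1 (chr2:119046869-119047168, forward strand) are shown as the CHR-bearing genes with the largest reductions in HC11-ΔSAP cells. Bub1 (chr2:127831810-127832109, reverse strand) is shown because it differed in opposite directions in the mutant strains, Dsn1 (chr2:157007026-157007325, reverse strand) because it was higher in both mutant strains, and Cenpc1 (chr5:86065534-86065833, reverse strand) because it differed least between HC11-ΔSAP and HC11-FL. Bub1 and Dsn1 were added after their values were seen. The CHR begins 2 bases after the start in Cenpf, 31 bases after it in Knl1 and 14 bases after it in Bub1.
Cenpf: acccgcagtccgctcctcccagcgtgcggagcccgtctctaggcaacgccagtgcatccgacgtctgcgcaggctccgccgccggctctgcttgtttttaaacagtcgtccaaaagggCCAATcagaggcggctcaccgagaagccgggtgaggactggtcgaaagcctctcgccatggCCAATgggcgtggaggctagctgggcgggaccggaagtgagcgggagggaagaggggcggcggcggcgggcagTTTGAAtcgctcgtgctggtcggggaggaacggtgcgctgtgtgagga
Knl1: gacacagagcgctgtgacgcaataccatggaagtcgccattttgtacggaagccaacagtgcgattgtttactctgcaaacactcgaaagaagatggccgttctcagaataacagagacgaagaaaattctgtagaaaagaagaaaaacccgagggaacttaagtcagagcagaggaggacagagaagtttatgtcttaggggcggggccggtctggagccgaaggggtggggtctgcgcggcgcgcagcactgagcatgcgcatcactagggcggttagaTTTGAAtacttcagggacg
Bub1: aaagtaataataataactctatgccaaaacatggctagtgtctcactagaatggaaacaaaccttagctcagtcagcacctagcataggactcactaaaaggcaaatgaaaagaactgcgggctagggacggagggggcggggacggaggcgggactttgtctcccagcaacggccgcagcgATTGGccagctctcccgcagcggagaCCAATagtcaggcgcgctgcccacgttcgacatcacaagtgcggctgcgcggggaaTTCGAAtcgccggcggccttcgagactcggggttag
Dsn1: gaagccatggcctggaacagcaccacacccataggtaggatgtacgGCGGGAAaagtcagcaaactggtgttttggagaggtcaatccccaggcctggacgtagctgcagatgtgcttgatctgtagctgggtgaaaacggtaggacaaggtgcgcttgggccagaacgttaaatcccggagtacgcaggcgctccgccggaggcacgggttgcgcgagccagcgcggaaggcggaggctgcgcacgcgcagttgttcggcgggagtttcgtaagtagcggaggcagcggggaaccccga
Cenpc1: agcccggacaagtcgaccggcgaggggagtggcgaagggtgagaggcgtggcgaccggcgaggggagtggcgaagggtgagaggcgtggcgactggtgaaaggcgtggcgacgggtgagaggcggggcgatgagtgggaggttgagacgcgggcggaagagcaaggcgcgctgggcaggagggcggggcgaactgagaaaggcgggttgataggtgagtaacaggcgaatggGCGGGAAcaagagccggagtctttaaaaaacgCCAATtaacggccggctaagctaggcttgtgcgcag
The windows of Cenpf and Bub1 each pair 2 CCAAT boxes upstream of the start with a CHR just downstream of it. Knl1 has a CHR and no other motif of the search, Dsn1 has an E2F motif far upstream, and Cenpc1 has an E2F motif before and a CCAAT box after its start.

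All levels below are log2 expression values of the array, on which the methods of the study asked for a mean of at least 4 before a gene could count as differentially expressed. Genes at or above that level are called expressed here, and levels are compared between strains and not between genes. Arrays of the same strain correlated at 0.994 to 0.995 over all probesets, arrays of different strains at 0.985 to 0.989, and array medians lay between 4.53 and 4.60. The mammary epithelial markers Krt8, Krt18, Krt14, Krt5, Cdh1 and Epcam were all expressed in every strain, with strain means of 7.59 or more. At a limma adjusted p of 0.01 or less, whatever the fold, HC11-ΔSAP cells had 4 of the 6 lower against HC11-FL and 2 higher. Of all 19937 genes 8.09% were lower and 10.8% higher there. HC11-mutB1 cells had 2 of the 6 lower against HC11-FL and 3 higher, where 7.21% and 10.5% of all genes were. The basal keratin gene Krt5 was at 7.59 in HC11-ΔSAP, 10.64 in HC11-mutB1 and 9.49 in HC11-FL cells, 3.73-fold lower in HC11-ΔSAP (limma adjusted p = 5.23e-07) and, in HC11-mutB1 cells, 2.23-fold higher (adjusted p = 5.10e-06). Krt18, a luminal keratin gene, was 2.56-fold lower in HC11-ΔSAP and 1.57-fold lower in HC11-mutB1 cells, both against HC11-FL (limma adjusted p = 4.81e-06 and 0.000241). The endothelial markers (0 of 5 expressed) and the leukocyte markers Ptprc and Lyz2 stayed under 4, while Cd3e was at 4.70 in HC11-ΔSAP, 4.66 in HC11-mutB1 and 4.75 in HC11-FL cells and Cd68 was at 8.14 in HC11-ΔSAP, 7.35 in HC11-mutB1 and 7.69 in HC11-FL cells. Of 5 fibroblast markers 4 were expressed, and the array mean over all 5 was 5.32 to 5.42 in HC11-ΔSAP, 5.06 to 5.13 in HC11-mutB1 and 5.08 to 5.22 in HC11-FL cells. Decorin (Dcn) was at 6.82 in HC11-ΔSAP, 4.52 in HC11-mutB1 and 5.01 in HC11-FL cells, and without it the mean over the other 4 was 4.94 to 5.07 in HC11-ΔSAP, 5.19 to 5.28 in HC11-mutB1 and 5.12 to 5.26 in HC11-FL cells. Pdgfra ran opposite to Dcn, with a difference from HC11-FL of -0.42 in HC11-ΔSAP and 0.51 in HC11-mutB1 cells (limma adjusted p = 0.0059 and 0.00237), and Lum, the unexpressed one, was near 2.5 in every strain. Their part in the results below was not tested.

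In HC11-ΔSAP cells most kinetochore and checkpoint genes were lower relative to HC11-FL. By limma, at an adjusted p of 0.01 or less and whatever the fold, 28 of 40 genes were lower, where 8.09% of all 19937 genes were. The genes that were higher numbered 2, the centromere protein gene Cenpb and the outer kinetochore gene Dsn1, with 10.8% of all genes higher, and 10 genes did not pass. The median difference over the 40 genes was -0.69 (1.61-fold lower), with single genes between -1.95 and 0.61, beside a median of 0 over all genes. With the 3 filters of the study's methods, which also ask for a mean level of 4 or more and a 2-fold change, 13 of 40 genes were lower and 0 were higher, against 2.07% and 2.06% of the 13157 expressed genes. At an unadjusted p under 0.05 the fit gave 32 genes lower and 3 higher, but the share of all genes at that threshold was not counted. With 1 array left out the count of lower genes was 20 to 27, and the calls of Bub3, Cenpp, Spdl1, Cenpo, Spc24, Cenpw, Oip5 and Cenpi were each lost in 5 or more of the alternatives. All 40 genes had a mean level of at least 4 over the 9 arrays. In HC11-ΔSAP cells 5 of them (Oip5, Cenpk, Cenpp, Cenpw and Spdl1) had a strain mean under 4, in HC11-mutB1 cells 1 (Cenpw) and in HC11-FL cells 0.

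The same tests set against HC11-FL gave another picture in HC11-mutB1 cells. There 14 of 40 genes were higher, with 10.5% of all genes higher, and 0 were lower, with 7.21% of all genes lower, by limma at the same threshold. At an unadjusted p under 0.05 the fit gave 30 genes higher and 1 lower, again without a share of all genes to set beside them. The median difference was 0.35 over the 40 genes (range -0.42 to 1.11) and -0.018 over all genes. By the 3 filters 1 gene was higher, the checkpoint kinase gene Bub1, and 0 were lower, against 2.21% and 1.67% of expressed genes. The count of higher genes was 7 without HC11-FL replicate 1, 9 without HC11-FL replicate 3 and 9 without HC11-mutB1 replicate 2. The calls of Spc24 (10 alternatives), Mad2l1 (8), Oip5 (6), Cenpu (6) and Spdl1 (5) were those lost most often. The comparisons of both mutant strains use the same HC11-FL arrays and are therefore not independent of each other.

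Averaged over the 40 genes, the array level was 5.77, 5.78 and 5.86 in HC11-ΔSAP, 6.86, 6.92 and 6.94 in HC11-mutB1, and 6.50, 6.58 and 6.54 in HC11-FL cells. The strains did not overlap in this average. Of the 9 general proliferation markers 8 were measured, and their average moved the same way, at 7.18 to 7.32 in HC11-ΔSAP, 8.81 to 8.95 in HC11-mutB1 and 8.34 to 8.41 in HC11-FL cells. In RNA of whole cultures, fewer dividing cells and less RNA per dividing cell cannot be told apart, and the part of the proliferation markers in the kinetochore differences was not tested.

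**Figure D1:**
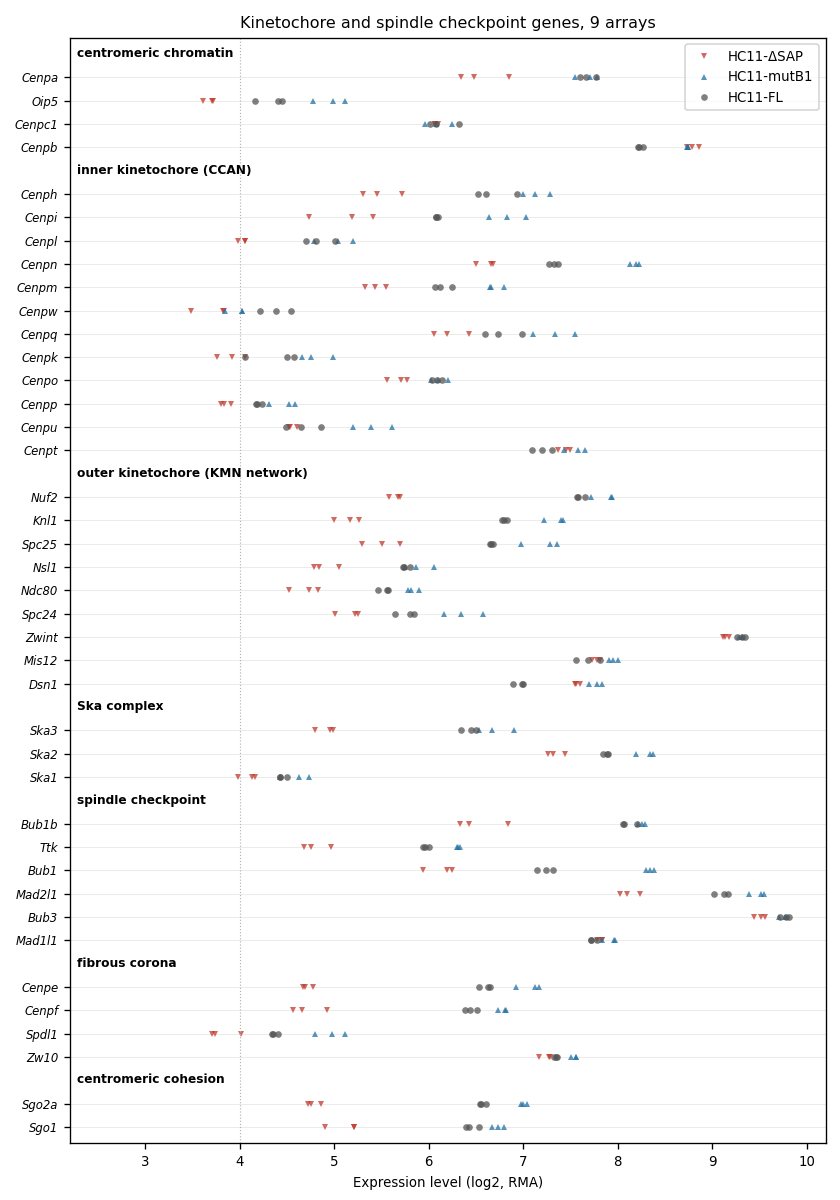
Expression level (log2) of the 40 genes on each of the 9 arrays, grouped by role, with HC11-ΔSAP as red triangles, HC11-mutB1 as blue triangles and HC11-FL as grey circles; the dotted line marks a level of 4. Nuf2, Cenpe and Sgo2a differ most in HC11-ΔSAP against HC11-FL (-1.95, -1.89 and -1.79), while Cenpc1, Mis12 and Mad1l1 differ least in that comparison (-0.062, 0.09 and 0.08).

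Among the genes of centromeric chromatin, HC11-ΔSAP cells had 2 of 4 lower and 1 higher against HC11-FL, beside 8.09% and 10.8% of all genes. Cenpa, the histone variant that specifies the centromere, measured 6.85, 6.34 and 6.48 in HC11-ΔSAP, 7.55, 7.78 and 7.70 in HC11-mutB1, and 7.77, 7.60 and 7.66 in HC11-FL cells. All HC11-ΔSAP arrays lay below the others, by 2.17-fold against HC11-FL (limma adjusted p = 0.000416), and the other strains overlapped, with a difference near 0 (95% confidence interval -0.29 to 0.29). Oip5, a subunit of the Mis18 complex that licenses the loading of Cenpa, had 3.61, 3.71 and 3.72 in HC11-ΔSAP, 5.12, 4.77 and 4.98 in HC11-mutB1, and 4.16, 4.45 and 4.40 in HC11-FL cells. It passed the test in both directions, at 1.58-fold lower in HC11-ΔSAP (adjusted p = 0.00253) and, in HC11-mutB1 cells, 1.54-fold higher (adjusted p = 0.0037, limma). The strains did not overlap, but how many of all genes separate in this way was not counted, here or for the genes below.

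Cenpb, which binds a DNA box in centromeric repeats, did the opposite of Cenpa in HC11-ΔSAP cells. Its levels were 8.86, 8.78 and 8.73 in HC11-ΔSAP, 8.74, 8.74 and 8.74 in HC11-mutB1, and 8.26, 8.21 and 8.23 in HC11-FL cells. Both mutant strains were above HC11-FL, by 1.47-fold in HC11-ΔSAP (limma adjusted p = 6.84e-05) and by 1.42-fold in HC11-mutB1 cells (adjusted p = 0.000122). Cenpc1, which links Cenpa nucleosomes to the outer layer, stood at 6.06, 6.10 and 6.06 in HC11-ΔSAP, 6.08, 5.96 and 6.25 in HC11-mutB1, and 6.01, 6.32 and 6.08 in HC11-FL cells. Those arrays overlapped, and the difference between HC11-ΔSAP and HC11-FL was -0.062 with a 95% confidence interval of -0.29 to 0.16, which leaves out any change of 1.5-fold.

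The inner kinetochore genes encode the constitutive centromere-associated network. Of these 12 genes 8 were lower in HC11-ΔSAP relative to HC11-FL, where 8.09% of all genes were, and no other passed. The median difference was -0.61, beside -0.84 over the 9 outer kinetochore genes, and 1 gene, Cenph, passed the 3 filters. Cenph had 5.46, 5.30 and 5.72 in HC11-ΔSAP, 6.99, 7.12 and 7.28 in HC11-mutB1, and 6.52, 6.93 and 6.61 in HC11-FL cells. It was 2.29-fold lower in HC11-ΔSAP relative to HC11-FL (limma adjusted p = 0.000557). The strains were apart on every array, but the difference between HC11-mutB1 and HC11-FL did not pass (limma adjusted p = 0.0684). Cenpi, a partner of Cenph, had 4.73, 5.19 and 5.41 in HC11-ΔSAP, 6.64, 6.83 and 7.02 in HC11-mutB1, and 6.09, 6.08 and 6.08 in HC11-FL cells. Its reduction of 1.96-fold in HC11-ΔSAP cells passed (adjusted p = 0.00382, limma), and its level in HC11-mutB1 cells, above every HC11-FL array, did not (adjusted p = 0.0149). Among the 40 genes, the same value was deposited more than once within HC11-FL for Cenpi and within HC11-mutB1 for Cenpw, where the SD and the p may be too small. In the other lists this also holds, among others, for Ube2c (SD of 0) and Pttg1 within HC11-FL and for Krt18 within HC11-mutB1.

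Cenpl, which pairs with Cenpn on the Cenpa nucleosome, was at 4.05, 4.05 and 3.98 in HC11-ΔSAP, 4.78, 5.19 and 5.04 in HC11-mutB1, and 4.70, 5.01 and 4.81 in HC11-FL cells. The reduction in HC11-ΔSAP cells was 1.76-fold (limma adjusted p = 0.0014), while HC11-mutB1 and HC11-FL overlapped. The inner kinetochore gene with the smallest difference was Cenpu, which recruits the kinase Plk1, at 4.53, 4.61 and 4.52 in HC11-ΔSAP, 5.61, 5.38 and 5.19 in HC11-mutB1, and 4.48, 4.86 and 4.65 in HC11-FL cells. HC11-ΔSAP and HC11-FL overlapped there (difference -0.11, 95% confidence interval -0.39 to 0.17), and HC11-mutB1 was 1.66-fold higher than HC11-FL (adjusted p = 0.00363, limma). The other genes of this layer that were lower in HC11-ΔSAP cells were Cenpn (-0.71), Cenpm (-0.70), Cenpw (-0.67), Cenpo (-0.41) and Cenpp (-0.35). Those that did not pass were Cenpq (-0.55), Cenpk (-0.47) and Cenpt (0.24), whose adjusted p was 0.0368, 0.0746 and 0.0653 by limma. In HC11-mutB1 cells 3 of the 12 were higher relative to HC11-FL, where 10.5% of all genes were: Cenpn (0.86), Cenpu and Cenpm (0.56).

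The outer kinetochore held the gene with the largest reduction. Nuf2, which with Ndc80 forms the microtubule-binding head of the Ndc80 complex, measured 5.67, 5.69 and 5.58 in HC11-ΔSAP, 7.72, 7.93 and 7.94 in HC11-mutB1, and 7.58, 7.65 and 7.57 in HC11-FL cells. It was 3.87-fold lower in HC11-ΔSAP relative to HC11-FL (difference -1.95 ± 0.070, SE; limma adjusted p = 9.89e-07). Ndc80 measured 4.82, 4.73 and 4.52 in HC11-ΔSAP, 5.78, 5.81 and 5.90 in HC11-mutB1, and 5.57, 5.55 and 5.46 in HC11-FL cells. It was lower in HC11-ΔSAP as well, but by 1.79-fold (limma adjusted p = 0.000177). The subunits that anchor this complex to the inner layer, Spc25 and Spc24, were also lower. Spc25 had 5.30, 5.50 and 5.69 in HC11-ΔSAP, 6.98, 7.28 and 7.36 in HC11-mutB1, and 6.66, 6.68 and 6.65 in HC11-FL cells, a reduction of 2.24-fold in HC11-ΔSAP (adjusted p = 0.000259, limma). Spc24 had 5.25, 5.21 and 5.00 in HC11-ΔSAP, 6.57, 6.16 and 6.35 in HC11-mutB1, and 5.81, 5.64 and 5.85 in HC11-FL cells, a reduction of 1.52-fold (adjusted p = 0.00689). In HC11-mutB1 cells Spc24 alone of the 4 subunits passed, at 1.51-fold higher than HC11-FL (limma adjusted p = 0.00828), a call lost in 10 of the alternatives. Ndc80, Nuf2 and Spc25 did not pass there (limma adjusted p = 0.0352, 0.0341 and 0.0147). For all 4 every HC11-mutB1 array lay above every HC11-FL array, but how many of all genes separate in this way was not counted.

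Knl1, the scaffold on which Bub1 and Bub3 dock, was at 5.00, 5.17 and 5.26 in HC11-ΔSAP, 7.22, 7.42 and 7.40 in HC11-mutB1, and 6.78, 6.80 and 6.82 in HC11-FL cells. It passed in both comparisons, at 3.15-fold lower in HC11-ΔSAP (limma adjusted p = 4.49e-06) and, in HC11-mutB1 cells, 1.46-fold higher (adjusted p = 0.00173). The Mis12 complex, which joins the inner layer to Knl1 and the Ndc80 complex, was uneven. Mis12 itself had 7.79, 7.72 and 7.82 in HC11-ΔSAP, 7.95, 8.0 and 7.91 in HC11-mutB1, and 7.68, 7.55 and 7.82 in HC11-FL cells, where HC11-ΔSAP and HC11-FL overlapped (difference 0.09, 95% confidence interval -0.07 to 0.25). Mis12 was above HC11-FL on every HC11-mutB1 array, by 0.27, which did not pass (limma adjusted p = 0.029). Its partner Nsl1 was 1.81-fold lower in HC11-ΔSAP relative to HC11-FL (limma adjusted p = 0.000347), and its partner Dsn1 was higher. Dsn1, singled out after its values were seen, had 7.55, 7.60 and 7.56 in HC11-ΔSAP, 7.78, 7.83 and 7.70 in HC11-mutB1, and 6.90, 7.0 and 6.98 in HC11-FL cells. Both mutant strains exceeded HC11-FL on every array, by 1.53-fold in HC11-ΔSAP (limma adjusted p = 8.72e-05) and 1.75-fold in HC11-mutB1 cells (adjusted p = 2.02e-05). Zwint, which binds Knl1, differed by -0.17 in HC11-ΔSAP cells and did not pass (adjusted p = 0.0252).

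The Ska complex helps the Ndc80 complex to follow the ends of shortening microtubules. In HC11-ΔSAP cells 2 of its 3 genes were lower relative to HC11-FL, where 8.09% of all genes were. Ska3 had 4.79, 4.99 and 4.95 in HC11-ΔSAP, 6.53, 6.67 and 6.90 in HC11-mutB1, and 6.34, 6.50 and 6.44 in HC11-FL cells, 2.86-fold lower in HC11-ΔSAP relative to HC11-FL (limma adjusted p = 2.64e-05). Ska2 had 7.32, 7.26 and 7.44 in HC11-ΔSAP, 8.19, 8.38 and 8.34 in HC11-mutB1, and 7.85, 7.89 and 7.90 in HC11-FL cells, and passed in both comparisons, 1.45-fold lower in HC11-ΔSAP (limma adjusted p = 0.00063) and, in HC11-mutB1 cells, 1.34-fold higher (adjusted p = 0.00238). Ska1 had 4.13, 3.98 and 4.15 in HC11-ΔSAP, 4.73, 4.42 and 4.63 in HC11-mutB1, and 4.42, 4.50 and 4.42 in HC11-FL cells. Its HC11-ΔSAP arrays all lay below HC11-FL, close to the level of 4, and the difference of -0.36 did not pass (limma adjusted p = 0.0193).

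In the spindle checkpoint 5 of 6 genes, beside 8.09% of all genes, were lower in HC11-ΔSAP relative to HC11-FL. The median difference over the 6 genes was -1.05. Bub1b, which encodes the BubR1 component of the mitotic checkpoint complex, had 6.43, 6.33 and 6.84 in HC11-ΔSAP, 8.21, 8.29 and 8.26 in HC11-mutB1, and 8.21, 8.06 and 8.07 in HC11-FL cells. The HC11-ΔSAP arrays were 2.98-fold lower (limma adjusted p = 5.69e-05). Every HC11-mutB1 array lay above every HC11-FL array, the closest by less than the rounding. The difference of 0.15 did not pass (95% confidence interval -0.14 to 0.43, limma adjusted p = 0.514). Ttk, the Mps1 kinase that starts checkpoint signalling, had 4.68, 4.76 and 4.96 in HC11-ΔSAP, 6.30, 6.30 and 6.33 in HC11-mutB1, and 5.94, 5.96 and 6.0 in HC11-FL cells. In HC11-ΔSAP cells this was 2.25-fold lower (limma adjusted p = 1.67e-05). Its small excess in HC11-mutB1 cells (0.34), although on every array, missed the threshold (adjusted p = 0.0109).

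Bub1, the kinase that docks on Knl1 and marks centromeric chromatin for the shugoshins, had 6.24, 5.94 and 6.19 in HC11-ΔSAP, 8.35, 8.38 and 8.30 in HC11-mutB1, and 7.15, 7.31 and 7.24 in HC11-FL cells. Its levels split into separate bands, HC11-ΔSAP lowest and HC11-mutB1 highest. The distances to HC11-FL were alike in size, -1.11 ± 0.084 in HC11-ΔSAP and 1.11 ± 0.084 in HC11-mutB1 cells (difference ± SE, limma adjusted p = 4.93e-05 and 5.13e-05). Mad2l1, the inhibitor of Cdc20, had 8.10, 8.03 and 8.23 in HC11-ΔSAP, 9.39, 9.52 and 9.55 in HC11-mutB1, and 9.02, 9.17 and 9.12 in HC11-FL cells. It also passed in both comparisons, at 1.98-fold lower in HC11-ΔSAP (limma adjusted p = 4.21e-05) and, in HC11-mutB1 cells, 1.30-fold higher (adjusted p = 0.00697), the second of these calls being lost in 8 of the alternatives.

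The other checkpoint genes differed little. Bub3, the partner of Bub1 and BubR1, had 9.51, 9.44 and 9.55 in HC11-ΔSAP, 9.77, 9.71 and 9.78 in HC11-mutB1, and 9.81, 9.78 and 9.72 in HC11-FL cells. Its reduction of 1.20-fold in HC11-ΔSAP cells passed (limma adjusted p = 0.00534), the smallest reduction that did among the 40 genes. Mad1l1, which carries Mad2 to unattached kinetochores, had 7.83, 7.83 and 7.78 in HC11-ΔSAP, 7.83, 7.97 and 7.95 in HC11-mutB1, and 7.72, 7.78 and 7.71 in HC11-FL cells. Its difference between HC11-ΔSAP and HC11-FL was 0.08 (95% confidence interval -0.04 to 0.19, limma adjusted p = 0.414). Between HC11-mutB1 and HC11-FL it was 0.18, which did not pass (limma adjusted p = 0.0408).

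The products of the fibrous corona genes form the outermost layer before attachment. Of these 4 genes 3 were lower in HC11-ΔSAP relative to HC11-FL, where 8.09% of all genes were. Cenpe, the kinesin that moves chromosomes towards the spindle equator, had 4.68, 4.77 and 4.67 in HC11-ΔSAP, 6.92, 7.17 and 7.13 in HC11-mutB1, and 6.53, 6.65 and 6.63 in HC11-FL cells. It was 3.72-fold lower in HC11-ΔSAP (-1.89 ± 0.072, SE; limma adjusted p = 1.34e-06) and, in HC11-mutB1 cells, 1.39-fold higher (adjusted p = 0.00238). Cenpf, a large coiled-coil protein that binds microtubules and dynein regulators, had 4.66, 4.56 and 4.92 in HC11-ΔSAP, 6.73, 6.82 and 6.80 in HC11-mutB1, and 6.39, 6.43 and 6.51 in HC11-FL cells, 3.31-fold lower in HC11-ΔSAP relative to HC11-FL (limma adjusted p = 7.03e-06). Spdl1, the Spindly adaptor for dynein, had 3.70, 4.01 and 3.73 in HC11-ΔSAP, 4.80, 4.97 and 5.12 in HC11-mutB1, and 4.34, 4.41 and 4.35 in HC11-FL cells. It passed in both comparisons, although its HC11-ΔSAP level was at the edge of expression (1.46-fold lower in HC11-ΔSAP, limma adjusted p = 0.00627, and, in HC11-mutB1, 1.51-fold higher, adjusted p = 0.00446). Zw10, a dynein recruiter that also serves membrane traffic in interphase, had 7.17, 7.28 and 7.27 in HC11-ΔSAP, 7.50, 7.55 and 7.56 in HC11-mutB1, and 7.32, 7.35 and 7.36 in HC11-FL cells. Its differences, -0.10 in HC11-ΔSAP and 0.20 in HC11-mutB1 cells, did not pass (limma adjusted p = 0.19 and 0.0178).

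Both shugoshin genes, whose products shield centromeric cohesin until anaphase, were lower in HC11-ΔSAP cells by the 3 filters, against 2.07% of expressed genes. Sgo2a had 4.75, 4.72 and 4.86 in HC11-ΔSAP, 7.04, 6.98 and 6.99 in HC11-mutB1, and 6.54, 6.61 and 6.55 in HC11-FL cells, 3.45-fold lower in HC11-ΔSAP (limma adjusted p = 3.76e-07) and, in HC11-mutB1 cells, 1.35-fold higher (adjusted p = 0.000522). Sgo1 had 4.90, 5.20 and 5.21 in HC11-ΔSAP, 6.67, 6.73 and 6.80 in HC11-mutB1, and 6.39, 6.54 and 6.42 in HC11-FL cells, 2.54-fold lower in HC11-ΔSAP (adjusted p = 2.55e-05, limma). For both genes the 3 strains were apart on every array, a separation not counted over all genes, and the Sgo1 difference in HC11-mutB1 cells (0.28) did not pass (limma adjusted p = 0.0669). Mice carry a paralog of Sgo2a, Sgo2b, and cross-hybridisation of the probeset was not tested.

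**Figure D2:**
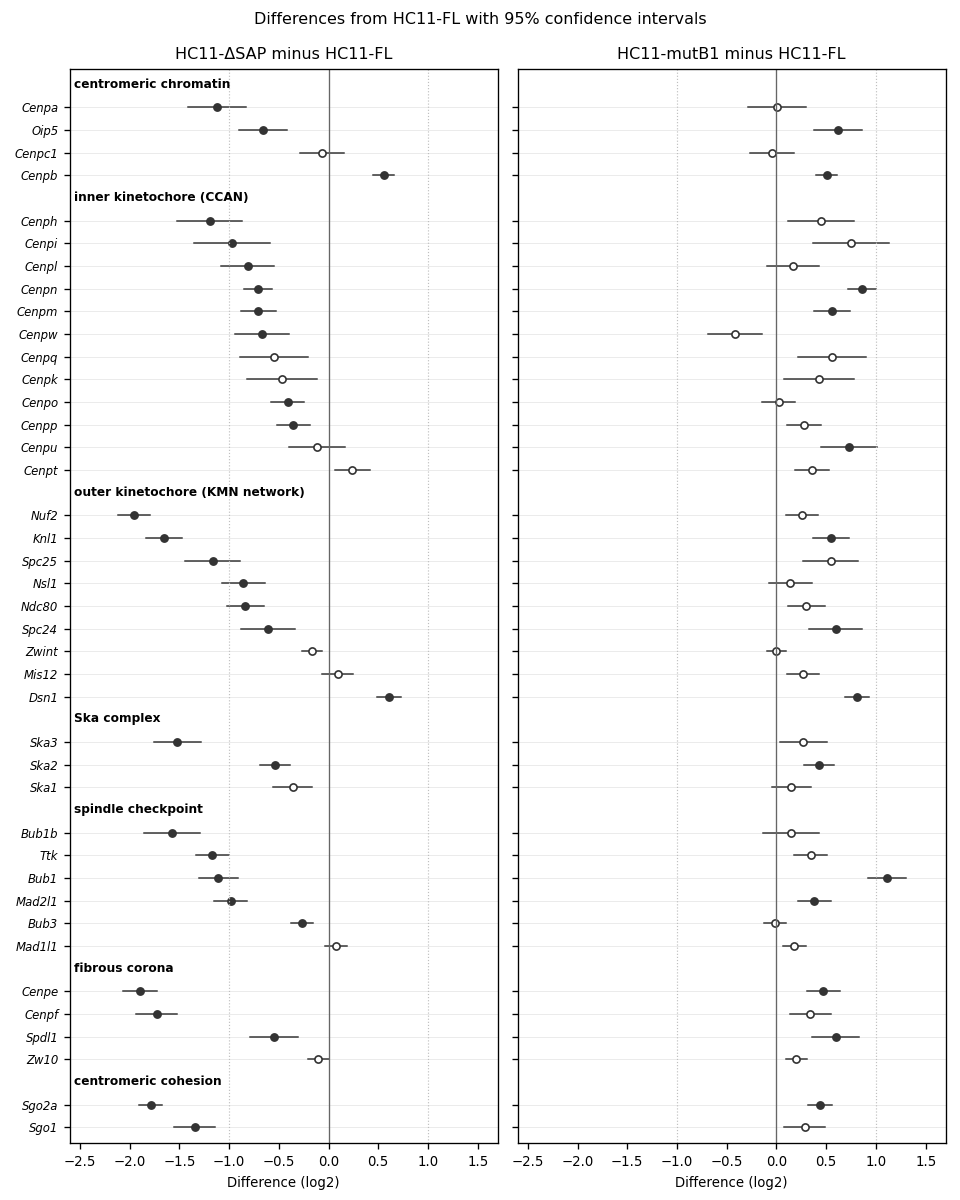
Difference from HC11-FL (log2) of the 40 genes in HC11-ΔSAP cells (left) and HC11-mutB1 cells (right), with 95% confidence intervals; filled circles passed limma at an adjusted p of 0.01 or less, open circles did not, and dotted lines mark a fold of 2. On the left 28 filled circles lie below 0 and 2 above it, and on the right 14 lie above 0, of which Bub1 lies beyond the dotted line.

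The mutant strains were then set against each other, which tests directly whether they differed. In HC11-ΔSAP cells 31 of 40 genes were lower relative to HC11-mutB1, with 7.11% of all genes lower (limma, adjusted p of 0.01 or less). At the same threshold 0 were higher, with 6.63% of all genes higher. With an unadjusted p under 0.05, 35 were lower and 0 higher, and the share of all genes was not counted there. The median difference was -1.13, beside 0.021 over all genes. The 3 filters were met by 22 genes, against 2.28% of expressed genes lower, and by 0 in the higher direction, against 1.61%. The widest gaps were those of Cenpe (5.15-fold lower in HC11-ΔSAP, limma adjusted p = 7.23e-07), Sgo2a (4.68-fold), Bub1 (4.65-fold), Nuf2 (4.64-fold) and Knl1 (4.60-fold). Cenpu and Cenpk, which had not passed between HC11-ΔSAP and HC11-FL, were 1.80-fold and 1.86-fold lower when HC11-ΔSAP was set against HC11-mutB1 (limma adjusted p = 0.00212 and 0.00501). With 1 array left out, the call of Cenpu was lost in 3 of 9 fits and that of Cenpk in 6 of 9. Cenpb, higher in both mutant strains relative to HC11-FL, differed between them by 0.049 (95% confidence interval -0.05 to 0.15), and Dsn1 by -0.20 (adjusted p = 0.0355). The small gene Cenpw, a histone-fold protein of the inner kinetochore, was the one with the most negative value in HC11-mutB1 against HC11-FL (-0.42, limma adjusted p = 0.0436). Between the mutant strains it differed by -0.25 and did not pass (adjusted p = 0.244).

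Neighbouring mitotic complexes were counted in the same fit. All 4 genes of the chromosomal passenger complex, which corrects faulty attachments, were lower in HC11-ΔSAP relative to HC11-FL, beside 8.09% of all genes. In HC11-mutB1 relative to HC11-FL 3 genes of the complex were higher, beside 10.5% of all genes. Aurkb, its kinase, had 6.43, 6.11 and 6.31 in HC11-ΔSAP, 8.34, 8.38 and 8.27 in HC11-mutB1, and 7.58, 7.44 and 7.54 in HC11-FL cells (2.36-fold lower in HC11-ΔSAP, limma adjusted p = 2.82e-05), and Cdca8 (borealin) was 2.34-fold lower in HC11-ΔSAP. The target of the checkpoint is the anaphase-promoting complex, counted with its activators. In HC11-ΔSAP cells 4 of 19 genes were lower and 2 higher, where 8.09% and 10.8% of all genes were, with a median of -0.015. In HC11-mutB1 cells 4 passed, all of them higher, where 10.5% of all genes were, with a median of 0.08. The lower ones were the activator Cdc20 (2.43-fold), the inhibitor Fbxo5 (2.15-fold) and the ubiquitin-conjugating enzymes Ube2c and Ube2s (the last not by its second probeset, adjusted p = 0.016), while the core subunits Anapc1 and Anapc11 were higher (0.45 and 0.71).

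The cohesin genes encode the proteins that hold sister chromatids together and those that load, protect or cut them. Against HC11-FL, HC11-ΔSAP cells had 5 of 15 lower and 2 higher, beside 8.09% and 10.8% of all genes, and HC11-mutB1 cells had 1 lower and 3 higher, beside 7.21% and 10.5%. The reductions were in the acetyltransferase Esco2 (2.41-fold lower), sororin (Cdca5, 2.28-fold), separase (Espl1), securin (Pttg1) and Stag1. The ring subunits Smc1a, Smc3 and Rad21 did not pass in HC11-ΔSAP against HC11-FL (limma adjusted p = 0.0105, 0.141 and 0.152). Smc1a missed narrowly there, at -0.23, and was higher in HC11-mutB1 against HC11-FL (0.24, limma adjusted p = 0.00948). Of 17 further kinetochore, checkpoint and Cenpa loading genes measured, out of 18 listed, HC11-ΔSAP cells had 6 lower and 2 higher, and HC11-mutB1 cells 1 lower and 3 higher, beside the same shares of all genes. Zwilch and Kntc1, which with Zw10 form the RZZ complex of the corona, were 2.62-fold and 2.41-fold lower in HC11-ΔSAP (limma adjusted p = 1.43e-05 and 4.91e-05). Of the 8 proliferation markers 7 were lower in HC11-ΔSAP against HC11-FL, beside 8.09% of all genes. In HC11-mutB1 against HC11-FL 5 of these markers were higher, beside 10.5% of all genes. Top2a was 3.20-fold and Ccna2 3.01-fold lower in HC11-ΔSAP (limma adjusted p = 2.19e-06 and 4.48e-06), and Pcna, a DNA replication clamp, differed by 0.013 (adjusted p = 0.98). Pcna has 2 probesets, and the dimmer one differed from HC11-FL by 0.081 in HC11-ΔSAP (adjusted p = 0.36) and by 0.68 in HC11-mutB1 cells (adjusted p = 3.75e-05), where the brighter one did not pass.

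**Figure D3:**
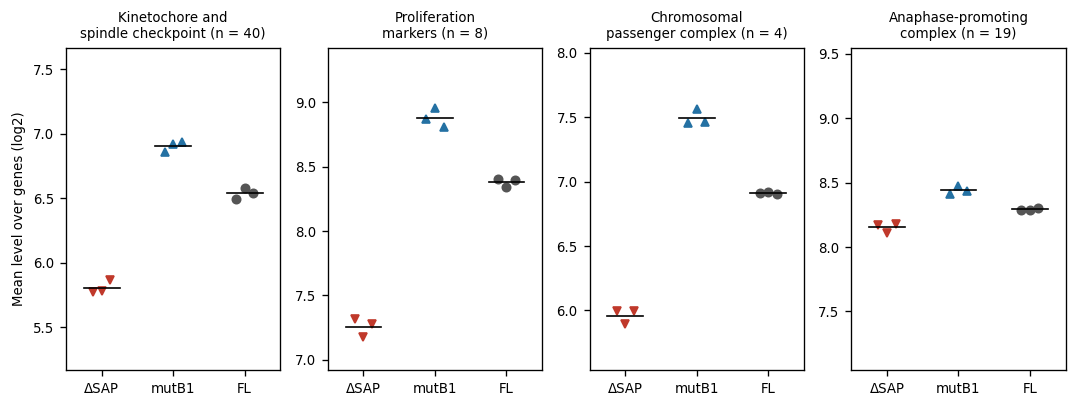
Mean level (log2) over the genes of 4 lists on each array, in HC11-ΔSAP, HC11-mutB1 and HC11-FL cells, with a line at the strain mean; every panel spans the same number of log2 units. The 40 kinetochore genes average 5.77 to 5.86 in HC11-ΔSAP, 6.86 to 6.94 in HC11-mutB1 and 6.50 to 6.58 in HC11-FL cells, and the 19 genes of the anaphase-promoting complex lie closer together, at 8.11 to 8.18 in HC11-ΔSAP, 8.41 to 8.48 in HC11-mutB1 and 8.29 to 8.30 in HC11-FL cells.

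The promoter windows printed above were then read beside the differences. The 15 genes with a CHR within 50 bases of the start, among them Cenpf, Knl1 and Bub1, were all among those lower in HC11-ΔSAP relative to HC11-FL, with a median of -1.12 and a range of -1.73 to -0.27. The 22 genes with a window and no such CHR included 11 lower and 2 higher genes, with a median of -0.44 and a range of -1.95 to 0.61. The gene with the largest reduction, Nuf2, was among these, as were Cenpe and Sgo2a, so a CHR near the start was not shared by all strongly reduced genes. Counting a CHR anywhere in the window, 17 of 18 genes with it were lower (median -0.97), the exception being Zw10, and 9 of 19 without it were lower (median -0.41). In HC11-mutB1 cells 5 of the 15 genes with a CHR near the start were higher relative to HC11-FL (median 0.34), as were 8 of the 22 without (median 0.40). Over all expressed genes with a window, those with a CHR within 50 bases had a median of -0.079 in HC11-ΔSAP against HC11-FL (442 genes), and those without a median of 0 (9985 genes). Since the distance was chosen after the matches were seen, these values are a description and were not tested.

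**Figure D4:**
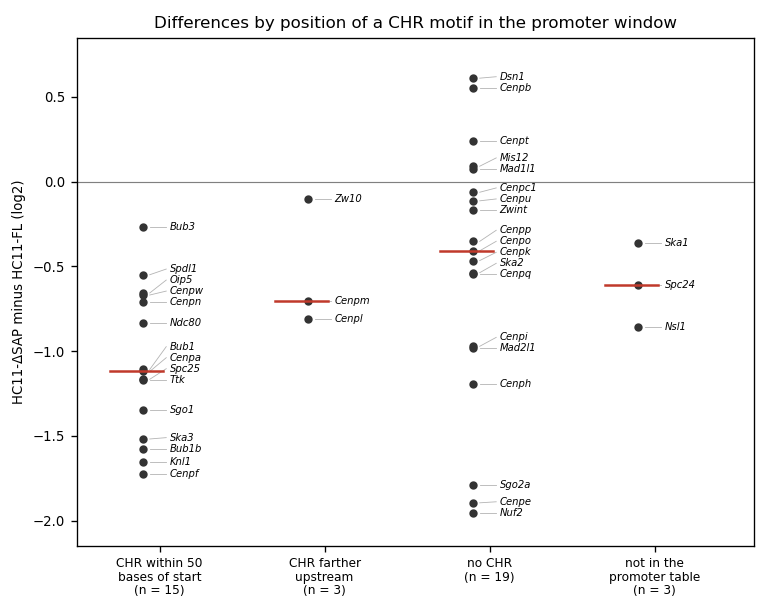
Difference of HC11-ΔSAP minus HC11-FL (log2) for the 40 genes, split by whether the promoter window holds a CHR within 50 bases of the start (15 genes), farther upstream (3 genes), nowhere (19 genes) or was not in the promoter table (3 genes); points are genes and red lines are medians. The 15 genes on the left lie between -1.73 and -0.27, and the 19 genes without a CHR spread between -1.95 and 0.61.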

How the data were processed

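RNA of the 3 HC11 strains was hybridised to Affymetrix Mouse Gene 1.0 ST arrays. The authors corrected and normalized the scans with RMA and deposited log2 expression values of 34760 probesets for 9 arrays. R 2.10.0 and affy are named in the submitters' processing notes. Because RMA brings all arrays to 1 distribution, a shift common to all genes would not be seen. Scans were not used here, so background and scan batches were not examined, and the small number of arrays limits the precision.

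By the array's annotation 21640 probesets had 1 gene symbol, 1321 several and 11799 none listed. Per gene the probeset with the highest mean was used, and each gene of the list had 1 probeset. Groups were taken from the sample labels. Differences were fitted with limma 3.58.1 in R 4.3.3 (lmFit and eBayes, 1 mean per strain, 9 arrays, 6 residual and 1.93 prior degrees of freedom), with Benjamini-Hochberg adjustment over all probesets. The code was tested on simulated data. The 41 genes, their roles and the other lists (chromosomal passenger complex, anaphase-promoting complex, cohesin, further kinetochore genes, proliferation and cell type markers) were chosen with earlier results of these data known, so no test over a list was made. Values on every array were given for the Ndc80 complex, the checkpoint genes, the 3 genes with the largest and the 1 with the smallest difference between HC11-ΔSAP and HC11-FL in each other role, genes past the 3 filters in HC11-mutB1 against HC11-FL, and Dsn1, added after its values were seen. Of each other list, except the endothelial markers, the 2 genes with the largest difference between HC11-ΔSAP and HC11-FL were given, with further genes named after their values were seen. Promoter windows of 300 bases were from RefSeq. Alternatives covered the threshold, the filters, the scaling, the arrays in the fit, the variance model, a replicate block, the choice of probeset and leaving out each array. The other probeset of listed genes and the fibroblast mean without Dcn were added after the data were seen.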

Additional observations from a re-analysis of the deposited data

How the results depend on the processing

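Between HC11-ΔSAP and HC11-FL the count of lower genes, 28 as reported, was 23 to 31 under another threshold, scaling, filter on low levels, set of arrays or variance model, and 20 to 27 with 1 array left out. The 3 filters, which add a fold of 2, gave 13. Between HC11-mutB1 and HC11-FL the count of higher genes, 14 as reported, was 26 at an adjusted p of 0.05 or less (with 1 lower gene). The share of all genes was not counted at that threshold, here or in the other comparisons. The count of higher genes was 1 by the 3 filters and 7 to 16 with 1 array left out. It was 7 without HC11-FL replicate 1, 9 without HC11-FL replicate 3 and 9 without HC11-mutB1 replicate 2. The cause was not tested. Between HC11-ΔSAP and HC11-mutB1 the count of lower genes, 31 as reported, was 22 by the 3 filters and 27 to 31 with 1 array left out. With 1 array left out, the median difference stayed between -0.73 and -0.66 for HC11-ΔSAP against HC11-FL, between 0.33 and 0.37 for HC11-mutB1 against HC11-FL and between -1.17 and -1.08 for HC11-ΔSAP against HC11-mutB1. No difference that passed as reported changed sign under an alternative that was run. Over the alternatives other than the 3 filters and leaving out 1 array at a time, 776 of the single-gene calls were unchanged, 30 were lost and 34 gained. Among these alternatives was the fit on only the 6 arrays of the strains compared. The calls lost most often between HC11-ΔSAP and HC11-FL were those of Bub3 (11 settings), Cenpp (10), Spdl1 (9), Cenpo (8), Spc24 (7) and Cenpw (7), and between HC11-mutB1 and HC11-FL those of Spc24 (10), Mad2l1 (8), Oip5 (6), Cenpu (6) and Spdl1 (5). Between HC11-ΔSAP and HC11-mutB1 they were those of Ska1 (8), Cenpk (6) and Cenpo (6).

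The deviations of samples with the same replicate number correlated at 0.11 to 0.26 for replicate 1 (3 pairs) and at -0.11 to 0.08 for replicates 2 and 3 (6 pairs), against -0.26 to 0.23 for different numbers (18 pairs). Of the 9 samples 4 correlated best with one of their own number, and the numbers were not taken as pairing. With the replicate number as a block, 25 genes were lower in HC11-ΔSAP relative to HC11-FL, 12 higher in HC11-mutB1 relative to HC11-FL and 30 lower in HC11-ΔSAP relative to HC11-mutB1. The block ended the calls of Oip5 (adjusted p = 0.0117), Cenpp and Bub3 in the first comparison. It also ended those of Oip5 (adjusted p = 0.0152), Cenpu and Spc24 in the second and of Ska1 in the third. In the second it added Cenpw as lower (-0.42, limma adjusted p = 0.0053) and Spc25 as higher (0.55, limma adjusted p = 0.00957). Taking the lowest instead of the highest probeset of a gene changed no gene of the list, since each had 1. For the proliferation markers, where this was added after the data were seen, it gave 6 lower genes for HC11-ΔSAP, the dimmer probeset of Top2a lying under 4, while HC11-mutB1 again had 5 higher. Signal near the level of 4 limits Oip5, Cenpk, Cenpp, Cenpw, Spdl1 and Ska1.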
